A study of Mus musculus with 38 samples.

Results

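The imprinted growth genes of brown adipose tissue described here were Nnat, Mest, Peg3, Igf2, H19, Dlk1, Plagl1, Grb10, Cdkn1c and Sgce. They were chosen by gene name, as the 10 of 29411 gene names on the array that belong to this group, and all 10 were among the 21855 genes tested. Nnat was in addition selected on its measured values, because its signal was higher on the high fat arrays than on the low fat arrays at every time point. The comparison of these diets is therefore given for all 10 genes as a description with no test, and so are the differences of Nnat from either diet.

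The study followed brown adipose tissue of C57BL/6J mice up to a time point labelled Week 18 to see how gene expression changed with diet and with a botanical formulation. All mice were weaned at 3 to 4 weeks of age and then assigned to diets at random. LFC mice were given a low fat control diet with 10% of calories from fat, and HFC mice a diet high in fat and sucrose with 60% of calories from fat. The groups HF5, HF20 and HF75 were given this same high fat diet with 5, 20 or 75 µg of Kal-1, an aqueous ethnobotanical formulation. The LFC and HFC arrays, 10 in each group, carry the labels Day 6, Day 10 and Day 14 and then Week 0, Week 3 and so on to Week 18, and the 6 arrays of each Kal-1 group the labels Week 3 to Week 18. The labels do not say from when the weeks run, and Week 0 was set here to day 14. The design text speaks of 3 biological replicates, but the labels give 1 array for each group and time point, and the labelled times within a group were used as its replicates. Nothing in the labels says how many animals an array represents, so the spread between arrays mixes time, animals and technique.

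Each array was read in 1 colour, and every level below is the log2 signal of a gene's probe minus the 75th percentile of its array, so that 0 is the signal of a bright but common probe and a negative level lies below it. Levels are compared between arrays for 1 gene and never between genes, since probes differ in brightness. The raw 75th percentile ranged from 35.1 to 1209 intensity units over the 38 arrays. It fell into 27 dim arrays (35.1 to 430) and 11 bright arrays (625 to 1209), with between 36.6% and 78.8% of probes well above background on an array. Bright arrays were spread unevenly, with 4 of 10 in LFC, 2 of 10 in HFC, 0 of 6 in HF5, 4 of 6 in HF20 and 1 of 6 in HF75. The arrays were scanned on 12 days, and 8 of the 10 time points were scanned on 1 day each, so that time and scan day cannot be told apart.

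The tissue label was checked against 12 genes that mark brown adipocytes, and the bright array of HF75 at Week 3 was below all others for 8 of them. Ucp1, the uncoupling protein of brown fat, was at -3.07 on that array and at 3.38 to 8.57 on the other 37. Cidea was at -1.78 there against 5.58 to 8.77 elsewhere, and Zic1, a transcription factor of brown fat precursors, at -8.24 against -3.59 to 0.71. The log2 of the summed brown markers was 3.50 on that array and 7.12 to 10.55 on the others, while the summed white adipocyte markers were at 3.90 against 0.60 to 4.26. The macrophage markers summed to 4.41, above the highest of the other arrays (3.81). The other 4 markers lay within the range of the other arrays, with Prdm16 at 1.67 (0.93 to 2.93 elsewhere), Ebf2 at 0.66 (-1.72 to 2.26), Adrb3 at 2.18 (-0.19 to 6.62) and Dio2 at its lower end. Most differences of the members that rest on this array are given with it and without it. Correlations over the arrays are given only with it.

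Imprinted genes are read mainly from the copy inherited from one parent, and many of them set the size of the fetus, the placenta and later the fat depots. Genes active on the paternal copy, such as Igf2, Mest, Peg3, Dlk1 and Plagl1, tend to favour growth, and genes active on the maternal copy, such as H19, Grb10 and Cdkn1c, tend to restrain it. Nnat encodes neuronatin, a small membrane protein of the endoplasmic reticulum that lies in an intron of Blcap and takes part in calcium handling in neurons, pancreatic islets and fat.

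The promoters of the 4 members that differed among the Kal-1 doses are shown to let their base composition be compared. Each is the 250 bases before a transcription start in RefSeq, on assembly GRCm38.p6, written 5′ to 3′ on the strand of the gene. Of the 10 members, 7 had a RefSeq promoter. Nnat lies on the plus strand at chr2:157559828-157560077, Mest on the plus strand at chr6:30737800-30738049, Igf2 on the minus strand at chr7:142658805-142659054 and Grb10 on the minus strand at chr11:12037421-12037670. For genes with several starts the one with the most CpG is shown. Capitals mark the letters GCGCATGC, a core of sites bound by NRF1, and the letters GGGCGG of a GC box, each searched on both strands.
Nnat: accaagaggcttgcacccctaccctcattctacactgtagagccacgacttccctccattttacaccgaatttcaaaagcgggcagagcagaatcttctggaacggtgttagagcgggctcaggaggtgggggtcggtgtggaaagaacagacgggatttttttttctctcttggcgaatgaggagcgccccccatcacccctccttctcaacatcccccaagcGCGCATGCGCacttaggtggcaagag
Mest: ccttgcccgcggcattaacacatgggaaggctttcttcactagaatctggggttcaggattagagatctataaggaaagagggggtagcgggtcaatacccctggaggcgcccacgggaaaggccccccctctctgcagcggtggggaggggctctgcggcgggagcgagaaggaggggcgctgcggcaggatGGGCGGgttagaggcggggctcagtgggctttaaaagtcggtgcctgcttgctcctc
Igf2: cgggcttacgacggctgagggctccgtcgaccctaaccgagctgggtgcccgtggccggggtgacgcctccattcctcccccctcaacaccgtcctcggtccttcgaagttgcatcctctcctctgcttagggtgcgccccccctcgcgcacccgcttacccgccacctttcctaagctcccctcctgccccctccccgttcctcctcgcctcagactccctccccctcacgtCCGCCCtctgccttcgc
Grb10: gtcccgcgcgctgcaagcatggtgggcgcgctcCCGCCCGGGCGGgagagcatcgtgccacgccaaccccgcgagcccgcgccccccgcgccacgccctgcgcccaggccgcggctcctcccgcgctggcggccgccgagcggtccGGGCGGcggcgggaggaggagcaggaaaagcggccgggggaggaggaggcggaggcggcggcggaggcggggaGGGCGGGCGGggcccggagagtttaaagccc

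These 4 stretches differed widely in composition. The Nnat promoter held 12 CpG and a GC content of 54.8%, and Mest held 14 CpG and 62.4%. Igf2 held 22 CpG and 68.8%, and Grb10 held 40 CpG and 81.2%. The Grb10 count was above that of 98.7% of the 32851 promoters in the table, whose median was 6. The starts of Mest, Igf2 and Grb10 were picked for the most CpG, which favours high counts. Other starts held 7 and 14 CpG for Mest, 1, 10 and 6 for Igf2, and 8 for Grb10. GCGCATGC occurred upstream of Nnat as 2 overlapping matches, 1 on each strand, and in 2.26% of all promoters. GGGCGG occurred in Mest, in Igf2 and 5 times in Grb10, where matches overlap, and in 32.7% of all promoters. TATAAA (12.4% of all promoters), CCAAT (33.8%) and CACGTG (6.02%), also searched on both strands, were in none of these 4 windows. A match of letters is a description of the window and does not show that a factor binds there.

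Nnat was higher on the HFC array than on the LFC array at each of the 10 time points, which is how it was chosen. In LFC its level was -3.78, -2.58 and -2.69 at days 6, 10 and 14, and -3.18, -2.89, -4.25, -4.68, -3.10, -6.42 and -3.10 at weeks 0 to 18. In HFC it was -2.24, -0.61 and -1.85 at days 6, 10 and 14, and -2.89, -0.50, -2.82, -1.80, -1.25, -2.76 and -0.57 at weeks 0 to 18. The groups overlapped when time was ignored, since the highest LFC arrays, of days 10 and 14, lay above the HFC arrays of weeks 0, 6 and 15. On 2 LFC arrays, of weeks 6 and 15, Nnat was not well above background, whereas it was above background on all 10 HFC arrays. The mean level was -3.67 ± 1.18 (SD, n = 10) in LFC and -1.73 ± 0.96 (SD, n = 10) in HFC.

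The difference between HFC and LFC in Nnat averaged 1.94 ± 0.99 on the log2 scale (SD over 10 time points), a 3.83-fold difference in signal. It was smallest at Week 0 (0.29) and largest at Week 15 (3.66), where the LFC probe was not well above background. From day 6 to week 0 it averaged 1.16 ± 0.74 (SD, n = 4), and from week 3 to week 18 it averaged 2.46 ± 0.78 (SD, n = 6). In the 6 time points where both arrays were of the same brightness the mean was 2.06, and in the other 4 it was 1.75. With a floor under dim signals, set on each array at its lowest signal above background, the mean was 1.68. With another background correction (normexp), which raises dim signals, the mean was 0.91, and the sign of the mean was the same in all 21 settings tried. Of the 20942 genes with a value on every array of these diets, 14 (0.0669%) were higher in HFC at all 10 time points, and Nnat is 1 of them by selection. In limma's fit 0 of 21855 genes (0%) passed an adjusted p of 0.05 between the diets, with 1521 genes at an unadjusted p under 0.05. Among marker lists in the same comparison, the summed lymphocyte markers differed by 1.08 ± 1.15 (7 of 10 time points higher in HFC) and cell cycle genes by 0.88 ± 1.1 (8 of 10). Erythroid markers differed by 0.84 ± 1.78 (7 of 10) and brown adipocyte markers by 0.60 ± 0.85 (7 of 10). The other lists differed by less. The part of these lists in the Nnat values was not tested. Fewer cells of a type and less RNA per cell cannot be told apart in bulk tissue.

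**Figure D1:**
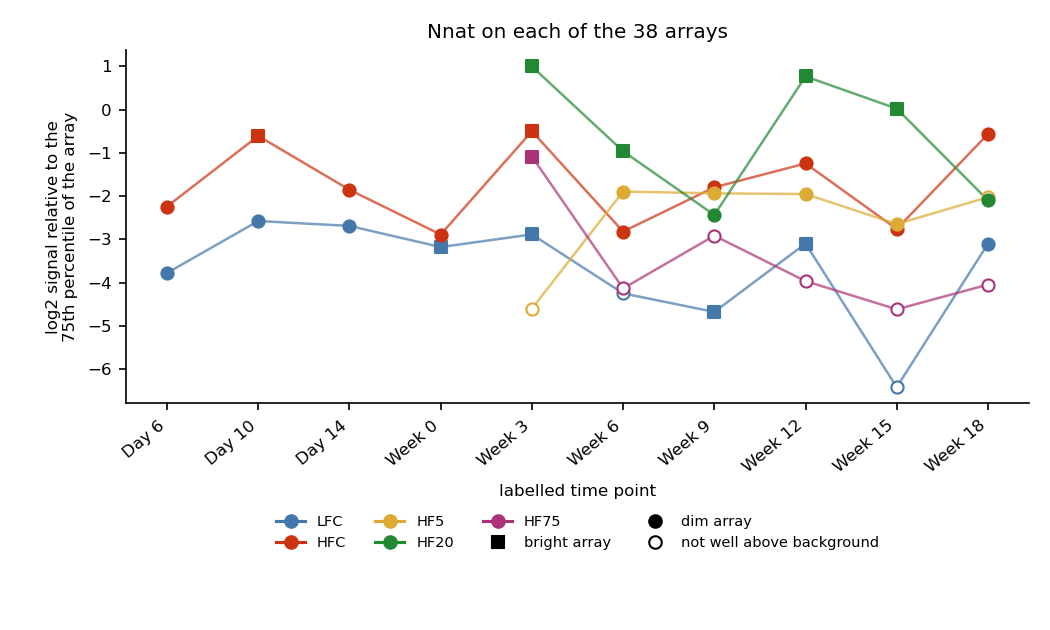
Level of Nnat on each of the 38 arrays, as log2 signal relative to the 75th percentile of the array (y axis), by labelled time point (x axis). Colours are groups, squares bright arrays, circles dim arrays and open symbols arrays where the probe was not well above background. HFC lies above LFC at each time point, HF20 reaches 1.0 at Week 3, and 5 of the 6 HF75 arrays are open symbols between -4.62 and -2.92.

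With Kal-1 in the high fat diet, Nnat had its highest levels in HF20 and its lowest in HF75. In HF20 it was 1.0, -0.96, -2.44, 0.77, 0.02 and -2.10 at weeks 3 to 18. In HF75 it was -1.09 at Week 3, on the array with low Ucp1, Cidea and Zic1, and then -4.13, -2.92, -3.97, -4.62 and -4.05. HF75 was thus not well above background from week 6 onwards, while HF20 was well above background at all 6 weeks. In HF5 the level was -4.60 at Week 3 and then -1.90, -1.94, -1.95, -2.65 and -2.03. The first and last of these were not well above background. The levels of HF5 and HFC overlapped.

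The order of the mean levels of Nnat over weeks 3 to 18 was HF20 (-0.62 ± 1.45), HFC (-1.62 ± 1.03), HF5 (-2.51 ± 1.06), HF75 (-3.46 ± 1.29, or -3.94 ± 0.62 without Week 3) and LFC (-4.07 ± 1.36; SD, n = 6 each). With all weeks kept, neighbours in this order differed by less than the spread of their differences over weeks. HF20 minus HFC was 1.0 ± 1.69 (4 of 6 weeks higher), HF5 minus HFC was -0.89 ± 1.76 (2 of 6 higher), and HF75 minus LFC was 0.61 ± 1.34 (4 of 6 higher), or 0.37 ± 1.35 without Week 3 (3 of 5 higher). HF75 minus HF5 was -0.95 ± 2.23. Without Week 3 it was -1.84 ± 0.50, larger than its spread, with HF75 lower at 5 of 5 weeks.

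Of the groups farther apart in the order, HF20 minus HF5 (1.89 ± 2.26, 4 of 6 weeks higher) and HF5 minus LFC (1.56 ± 1.90, 5 of 6) were also within their spread. HF75 was below HFC at 6 of 6 weeks, by -1.85 ± 1.08 on the log2 scale (SD), which 553 genes (2.54%) of 21767 also did. At the 5 weeks other than Week 3 the mean difference was -2.10 ± 0.99, and 3.65% of genes were lower at each of these. Because the probe was not well above background on these 5 arrays, they were set to the floor used above. Nnat was then at least 2.39-fold lower in HF75 than in HFC. Against HF5 the difference with the floor was -1.07, and no bound holds, since neither array was well above background at Week 18. HF75 was below HF20 at 6 of 6 weeks (mean -2.84 ± 1.67) and at 5 of 5 without Week 3 (-2.99 ± 1.81), where 11.9% and 12.7% of all genes did the same. The mean of this difference was -1.50 in the 3 weeks when both arrays were of the same brightness (-1.21 in 2 without Week 3) and -4.18 in the other 3. HF20 was above LFC at 6 of 6 weeks, by 3.45 ± 1.83 (3.03 with the floor), which held for 0.964% of genes. Nnat was chosen for levels higher in HFC than in LFC. That choice favours HF75 below HFC and HF20 above LFC, so the shares beside them are a description with no test. The summed brown markers were lower in HF75 than in HFC at 5 of 6 weeks (-1.37 ± 2.14), or by -0.52 ± 0.58 without Week 3 (4 of 5 lower), and their part in the Nnat values was not tested.

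Nnat also moved with the brightness of the array. Its mean was 1.52 higher on the log2 scale on the 11 bright arrays than on the 27 dim ones, and it was above background on 11 of 11 and on 18 of 27. The 4 bright HF20 arrays averaged 0.21, while the 2 dim ones, of weeks 9 and 18, were at -2.44 and -2.10, close to the 8 dim HFC arrays (-2.02 ± 0.83, SD). With brightness in the model HF20 minus HFC was -0.03 (SE 0.61). HF20 minus LFC was 2.92 in the 3 weeks when both arrays were of the same brightness. For HF75 minus HFC both arrays were of the same brightness at all 6 weeks.

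The moderated F test of limma among HF5, HF20 and HF75 used neither diet mean, but its spread also drew on LFC and HFC arrays. Nnat was chosen on those arrays, and all members with earlier results known, so the p of Nnat is not independent of the choice. The test called 2922 of 21855 genes (13.4%) and 4 of the 10 members. These were Nnat (adjusted p = 0.0348), Grb10 (0.0385), Igf2 (0.0433) and Mest (0.0497). Just outside the threshold were Cdkn1c (0.0627), Plagl1 (0.0631) and Peg3 (0.0787). All 4 calls, and all 2922, ended when the HF75 array of Week 3 was left out, with adjusted p of 0.0642 for Nnat, 0.0682 for Grb10, 0.0714 for Igf2 and 0.0769 for Mest. They also ended with brightness as a term in the model, where Nnat had an adjusted p of 0.322, Grb10 0.541, Igf2 0.664 and Mest 0.545. Brightness and dose ran together in part, since 4 of 6 HF20 arrays, 1 of 6 HF75 arrays and 0 of 6 HF5 arrays were bright.

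**Figure D2:**
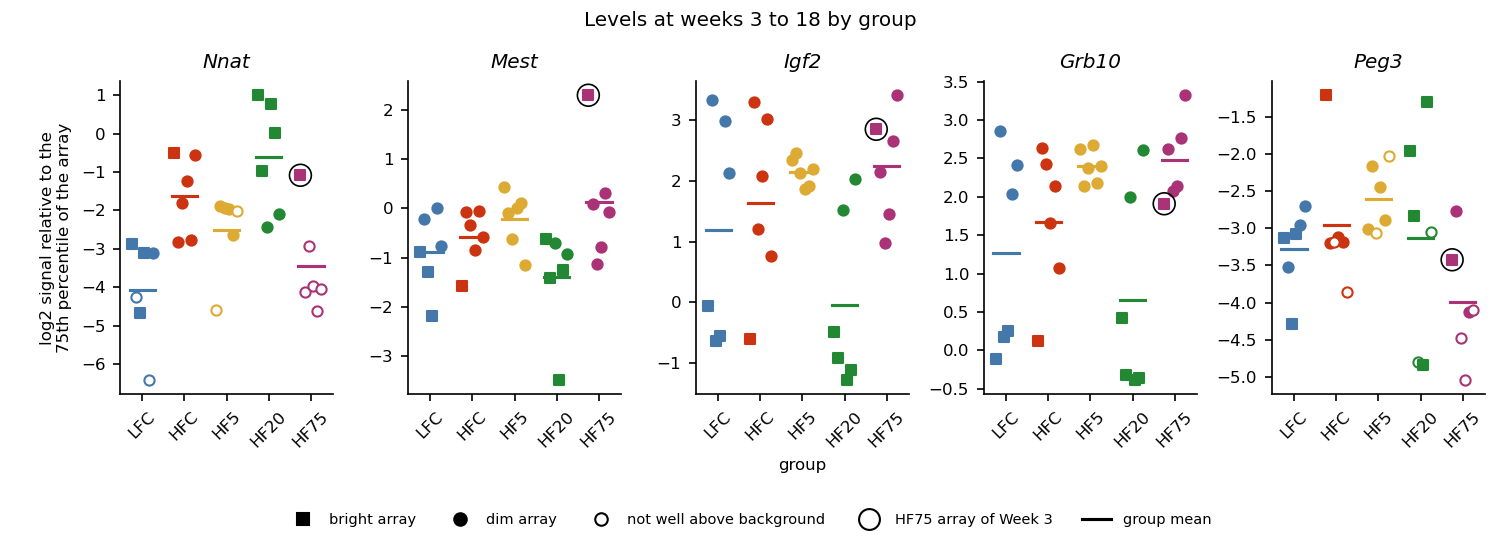
Levels of Nnat, Mest, Igf2, Grb10 and Peg3 at weeks 3 to 18 by group, as log2 signal relative to the 75th percentile of the array (y axis, a scale of its own for each gene). Squares are bright and circles dim arrays, open symbols are not well above background, lines are group means and the ring marks the HF75 array of Week 3. In HF20 the 4 bright arrays stand apart from the 2 dim ones for Igf2 and Grb10, and Mest has its highest level (2.31) on the ringed array.

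Mest, which encodes a hydrolase-like protein of the endoplasmic reticulum known to rise in expanding fat, was highest on the arrays of days 6 to 14, on HFC at Week 0 and on 1 Kal-1 array. In LFC it was 0.88, 1.73 and 1.26 at days 6, 10 and 14, and -0.46, -0.88, -0.22, -1.30, -2.18, 0.01 and -0.75 at weeks 0 to 18. In HFC it was 1.34, 1.79 and 1.75 at days 6, 10 and 14, then 1.76 at Week 0, and -1.58, -0.06, -0.35, -0.85, -0.05 and -0.57 at weeks 3 to 18. From week 3 onwards no LFC or HFC array was above 0.01. The diets differed little, with HFC minus LFC at 0.51 ± 0.82 (SD, n = 10) and HFC higher at 8 of 10 time points.

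In the Kal-1 groups Mest was lowest in HF20, at -0.61, -1.42, -0.70, -3.49, -1.25 and -0.93. HF5 ran from -1.16 at Week 18 to 0.43 at Week 3. In HF75 it was 2.31 at Week 3, the highest of all 38 arrays, and 0.09, -1.12, -0.78, 0.31 and -0.07 afterwards. HF20 minus HFC was -0.83 (SE 0.45, adjusted p = 0.189, limma), or -0.34 (SE 0.47, adjusted p = 0.973) with brightness in the model. It was 0.08 in the 3 weeks when both arrays were of the same brightness and -1.74 in the other 3. HF75 minus HFC was 0.70 (SE 0.45, adjusted p = 0.599), or 0.28 (SE 0.41, adjusted p = 0.885) without the HF75 array of Week 3. The level of Mest followed the summed markers of preadipocytes and stroma (Pdgfra, Cd34, Col1a1 and 6 others), with r of 0.75 over the 38 arrays, and 0.76 after the mean of each brightness class was removed. These points share arrays, depth of signal and time, and r was not computed without the HF75 array of Week 3. The summed stromal markers were at 6.44 to 7.91 on the arrays of days 6 to 14 and at 7.75 on the HF75 array of Week 3.

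Igf2, the fetal insulin-like growth factor, had 2 sets of levels in LFC. They were 3.76, 3.68 and 3.72 at days 6, 10 and 14, then 0.20, -0.07, 3.33, -0.64, -0.56, 2.99 and 2.12 at weeks 0 to 18. The 4 low LFC arrays are the 4 bright ones. In HFC the levels were 3.37, 0.89 and 3.02 at days 6, 10 and 14, and 2.25, -0.60, 3.29, 1.21, 2.08, 3.02 and 0.76 at weeks 0 to 18, and the bright arrays of Day 10 and Week 3 were again among the lowest. HFC minus LFC was 0.08 ± 1.67 (SD, n = 10), with the groups overlapping.

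Igf2 was steady in HF5, at 2.35, 2.46, 2.13, 1.86, 1.92 and 2.19, and low in HF20, at -0.49, -0.92, 1.52, -1.28, -1.12 and 2.03. HF20 was below HF5 at 6 of 6 weeks, by -2.20 ± 1.42 (SD). The mean was -0.39 in the 2 weeks when both arrays were of the same brightness and -3.10 in the other 4. The share of all genes with such a pattern was not counted, here or for Grb10, Plagl1 and Peg3 below. HF75 was at 2.85, 2.15, 0.98, 1.46, 2.66 and 3.41, above HF20 at 5 of 6 weeks. Against HFC, Igf2 was at -1.67 in HF20 (SE 0.69, adjusted p = 0.123, limma), at 0.53 in HF5 (SE 0.69, adjusted p = 0.905) and at 0.62 in HF75 (SE 0.69, adjusted p = 0.717; 0.32, SE 0.72, without Week 3). With brightness in the model the estimate for HF20 was -0.36 (SE 0.53). The mean of Igf2 was -0.16 on bright arrays and 2.43 on dim arrays, and the bright HF75 array at 2.85 was the exception.

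H19, the maternally read noncoding RNA next to Igf2, had its highest levels among LFC and HFC on the arrays labelled Day 6 to Day 14. In LFC it was -0.82, -1.0 and -1.60 at days 6, 10 and 14, and -3.92, -3.73, -4.15, -5.65, -2.74, -4.34 and -3.64 at weeks 0 to 18. In HFC it was -1.37, 1.70 and -2.22 at days 6, 10 and 14, and -4.65, -6.88, -4.46, -2.42, -3.26, -4.06 and -4.43 at weeks 0 to 18. All 6 early arrays (lowest -2.22) lay above all 14 later ones (highest -2.42), a pattern noticed in the values and shared by 45 of 20942 genes (0.215%). Week 0 lay with the later arrays in both diets, although it was set to the same day as Day 14. The split thus follows labels in days against labels in weeks, and not the days on diet as set here.

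H19 was above background on 19 of 38 arrays, on all 6 early ones and on 0 of 6 arrays of HF75. Among Kal-1 arrays it stood out on HF20 at Week 15 (-0.55) and at Week 3, where it was at the 75th percentile. On these 2 arrays the summed skeletal muscle markers were also high, at 8.90 and 8.66, as they were on HFC at Day 10 (8.54), which held the highest H19 level. Over 38 arrays r between H19 and the muscle markers was 0.57, and 0.61 with brightness removed. The 2 other arrays with high muscle markers, HF75 at Week 12 (10.26) and LFC at Week 12 (8.17), had H19 at -2.86, not well above background, and at -2.74. The part of muscle in the tissue was not tested. HFC minus LFC was -0.05 ± 1.82 (SD, n = 10), and HF20 minus HFC was 0.81 (SE 0.93, adjusted p = 0.53, limma).

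Grb10, an adaptor that dampens signalling of the insulin and insulin-like growth factor receptors, ran parallel to Igf2. It was 2.62, 2.13, 2.38, 2.67, 2.19 and 2.40 in HF5, then 0.41, -0.33, 1.99, -0.39, -0.37 and 2.60 in HF20, and 1.91, 2.62, 2.08, 2.14, 2.77 and 3.32 in HF75. HF75 was above HF20 at 6 of 6 weeks, by 1.82 ± 1.25 (SD), or 1.88 ± 1.39 without Week 3. With all weeks kept, the mean was 0.77 in the 3 weeks with arrays of the same brightness and 2.87 in the other 3. The 4 low HF20 arrays are its 4 bright ones, and over all arrays the mean of Grb10 was 0.31 on bright and 2.39 on dim ones. Against HFC it was -1.02 in HF20 (SE 0.52, adjusted p = 0.165, limma; 0.07, SE 0.34, with brightness in the model), 0.72 in HF5 (SE 0.52, adjusted p = 0.83) and 0.80 in HF75 (SE 0.52, adjusted p = 0.602; 0.76, SE 0.56, without Week 3). In LFC it ranged from -0.11 to 2.86 with a median of 2.18, and in HFC from 0.12 to 2.97 with a median of 2.26, a mean difference of 0.37 ± 1.30 (SD, n = 10).

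Cdkn1c, the cell cycle inhibitor p57, showed the largest contrast with brightness of the 10 genes. Its mean was 2.81 on bright and 5.53 on dim arrays. The 10 bright arrays measured (1.19 to 4.33) and the 27 dim ones (4.48 to 6.30) did not overlap. The share of all genes with such a separation was not counted. Its spot on the HFC array of Day 10 carried an outlier flag and was left out, so that the fit had 9 pairs. LFC ranged from 1.77 to 6.14 (median 4.48) and HFC from 4.33 to 6.11 (median 5.74), overlapping widely. HFC minus LFC was 1.30 ± 1.76 (SD, n = 9; 7 higher), but 0.18 in the 6 time points with arrays of the same brightness. HF20 minus HFC was -1.91 (SE 0.67, adjusted p = 0.119, limma), or -0.41 (SE 0.38) with brightness in the model, and HF75 minus HFC was -0.21 (SE 0.67, adjusted p = 0.909), or 0.10 (SE 0.70) without the HF75 array of Week 3.

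Plagl1, a zinc finger transcription factor that acts on other imprinted genes, was -0.87, 0.60, -1.30, -2.00, -0.68 and -1.30 in HF5 and 0.24, 0.72, -0.56, -1.63, 0.28 and 0.33 in HF75. HF75 was higher than HF5 at 6 of 6 weeks (0.82 ± 0.54, SD) and at 5 of 5 without Week 3 (0.76 ± 0.58). In HF20 it ranged from -1.91 to -0.99. In LFC it ranged from -3.09 to 1.17 and in HFC from -1.81 to 0.83, a mean difference of 0.36 ± 1.28 (SD, n = 10).

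Peg3, a zinc finger protein read from the paternal copy, was above background on 29 of 38 arrays. It was -3.01, -2.17, -3.07, -2.44, -2.89 and -2.03 in HF5 and -3.42, -2.76, -4.47, -5.04, -4.13 and -4.10 in HF75. HF75 was lower than HF5 at 6 of 6 weeks, by -1.39 ± 0.84 (SD), and by -1.58 ± 0.77 without Week 3. It was above background on only 3 of these 6 HF75 arrays, and with the floor under dim signals the difference was -0.43. HF75 minus HFC was -1.03 (SE 0.46, adjusted p = 0.538, limma), and -1.01 (SE 0.49) without the HF75 array of Week 3. LFC ranged from -4.28 to -1.47 and HFC from -3.86 to -0.24, a mean difference of 0.19 ± 0.98 (SD, n = 10) that turned to -0.33 under quantile normalization.

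Dlk1, a membrane protein that holds back the differentiation of fat cell precursors, was -2.11, -3.14, -1.94, -2.11, -3.04 and -2.77 in HF75 against -0.14, -1.57, -2.65, -0.11, -1.33 and -2.02 in HFC. HF75 was lower at 5 of 6 weeks, with a mean difference of -1.22 (SE 0.54, adjusted p = 0.538, limma), or -1.18 (SE 0.59) without the HF75 array of Week 3. HF20 minus HFC was -1.17 (SE 0.54, adjusted p = 0.141), or -0.52 (SE 0.55) with brightness in the model. It was -0.04 in the 3 weeks with arrays of the same brightness and -2.30 in the other 3. HFC minus LFC was 0.49 ± 1.52 (SD, n = 10) and was positive at 4 of 10 time points.

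Sgce, the epsilon sarcoglycan of muscle and nerve membranes, was the steadiest of the 10 genes. Its levels lay between 2.22 and 3.97 on all 38 arrays. HFC minus LFC was -0.20 ± 0.51 (SD, n = 10), and HF75 minus HFC was 0.53 (SE 0.26, adjusted p = 0.554, limma), or 0.50 (SE 0.28) without the HF75 array of Week 3.

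**Figure D3:**
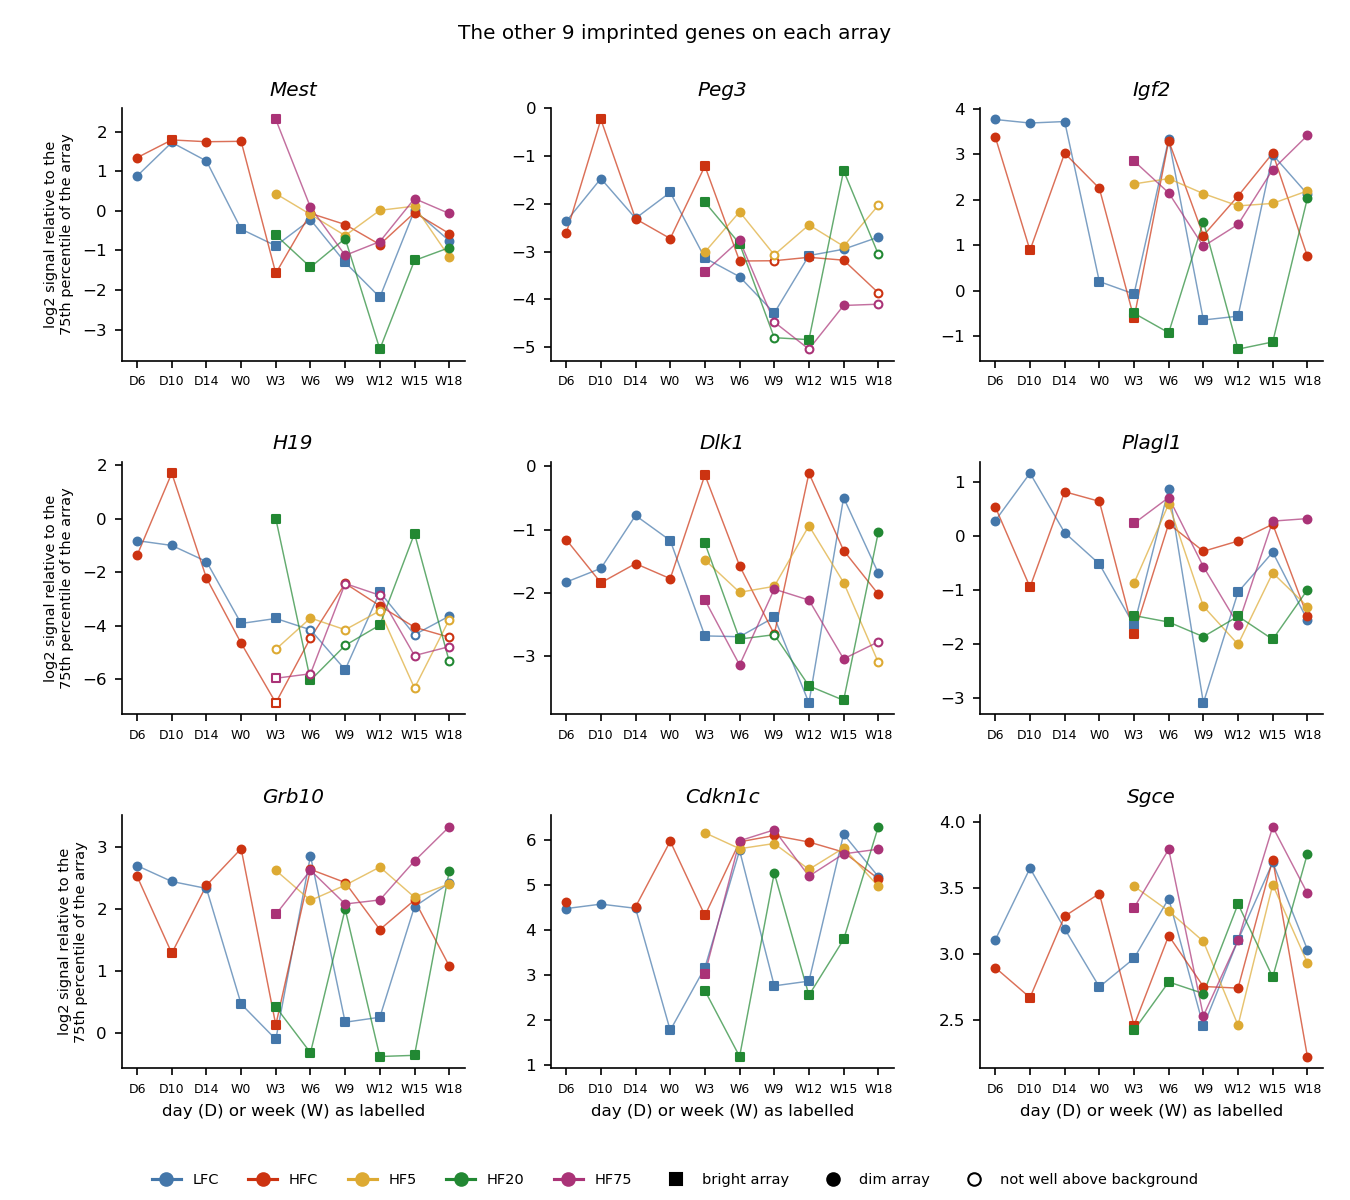
Levels of the other 9 genes on each array, as log2 signal relative to the 75th percentile of the array (y axis, a scale of its own for each gene), by labelled day (D) or week (W). Colours are groups, squares bright arrays, circles dim arrays and open symbols arrays not well above background. Mest and H19 start high at days 6 to 14, and the squares of Igf2, Grb10 and Cdkn1c lie low, apart from HF75 at Week 3 for Igf2 (2.85) and Grb10 (1.91).

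Over the 10 genes, 8 had a positive mean difference between HFC and LFC, Nnat among them by selection. The median of the 10, Nnat included, was 0.36 beside 0.06 over all genes tested, of which 55.3% were positive. With brightness in the model the median of the members was 0.09, and over the 6 time points with arrays of the same brightness the mean was 0.09 for Mest, -0.50 for Igf2 and -0.22 for Grb10. Nnat, chosen for this pattern, was the only member with HFC above LFC at all time points. Peg3, Igf2 and H19 changed sign with the scaling of the arrays (quantile normalization or normexp), and their means were within 0.20 of 0.

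**Figure D4:**
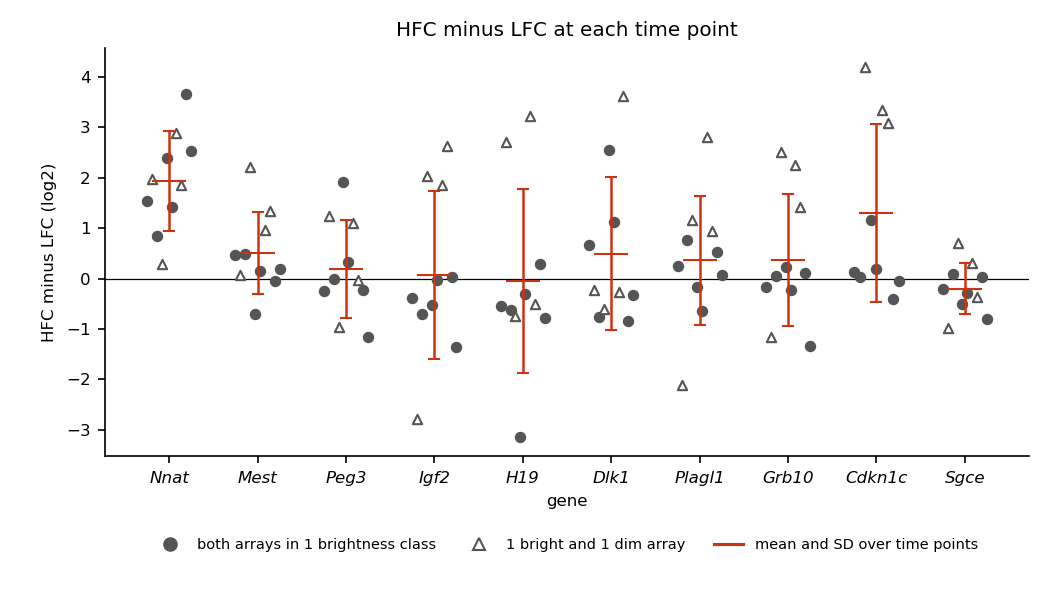
HFC minus LFC in log2 signal (y axis) for each gene (x axis). A point is a time point, circles pairs of arrays in 1 brightness class and triangles pairs of 1 bright and 1 dim array, and red marks are the mean and SD. All 10 points of Nnat lie above 0 (0.29 to 3.66), and the other genes straddle it, with the highest Cdkn1c point (4.21) from a mixed pair.

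Of the 9 members that could be tested against HFC, none was called in HF5, HF20 or HF75 by limma, where 0% of all genes were called in each. At an unadjusted p under 0.05 there were 1196, 7232 and 1999 genes, and among members Cdkn1c, Igf2, Plagl1 and Dlk1 in HF20 and Peg3 and Dlk1 in HF75. In HF20 the median of all genes was -0.20 relative to HFC under the main scaling and 0.04 under quantile normalization, and the median of the 10 members was -0.92, or -0.35 with brightness in the model. The summed endothelial markers (Pecam1, Cdh5, Kdr, Tek, Vwf and Flt1, each above background on all 38 arrays) were also lower in HF20 than in HFC, by -1.49 ± 1.91 (SD) at 5 of 6 weeks. Over the arrays r with these markers was 0.94 for Grb10, 0.88 for Cdkn1c and 0.82 for Igf2, and 0.69, 0.40 and 0.42 with brightness removed (38 arrays, 37 for Cdkn1c), and their part in the levels of these genes was not tested. Against LFC, the 3 doses together called 7 genes (0.032%), none of them among the 9 members tested, whose estimates ran from -0.06 for H19 to 0.58 for Grb10. Nnat was 1.88 (SE 0.54) above LFC over the 3 doses, given here without a test. These estimates over the 3 doses include the HF75 array of Week 3.

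Along the days of feeding, the level of Mest had a downward slope with the smallest p of the members, just outside the threshold. Across the 20 LFC and HFC arrays its slope was -1.56 per 100 days (SE 0.45, adjusted p = 0.0699, limma). With brightness in the model the slope was -1.80 (SE 0.34) and passed (adjusted p = 0.00996), as did Plagl1 (-1.20, adjusted p = 0.0258) and Igf2 (-1.17, adjusted p = 0.0266). That fit called 1721 of 21855 genes. Without Week 3 Mest also passed (-1.74, adjusted p = 0.0469), in a fit that called 126 genes. Without these changes 368 of 21855 genes (1.68%) and 0 of the 10 members were called. Peg3 had a slope of -1.16 (SE 0.38, adjusted p = 0.0927) and H19 of -1.72 (SE 0.83, adjusted p = 0.238).

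Of the 10 slopes 9 were negative, with a median of -0.54 beside 0.06 over all genes. With normexp the slopes of Nnat, Peg3, H19 and Dlk1 turned positive (0.61, 0.30, 0.29 and 0.42), beside a median over all genes of 0.43, so that those of Peg3, H19 and Dlk1 remained below the median. Mest kept its direction in all 19 settings, between -1.93 and -0.98. With scan day as a random block only 2 genes were called, and Mest had an adjusted p of 0.153. On the 18 Kal-1 arrays of weeks 3 to 18, which share no array with these, the slope of Mest was -0.97 (SE 0.59, adjusted p = 0.567), or -0.44 (SE 0.55) without the HF75 array of Week 3, and 0% of genes and 0 members were called, with 2185 genes at an unadjusted p under 0.05.

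**Figure D5:**
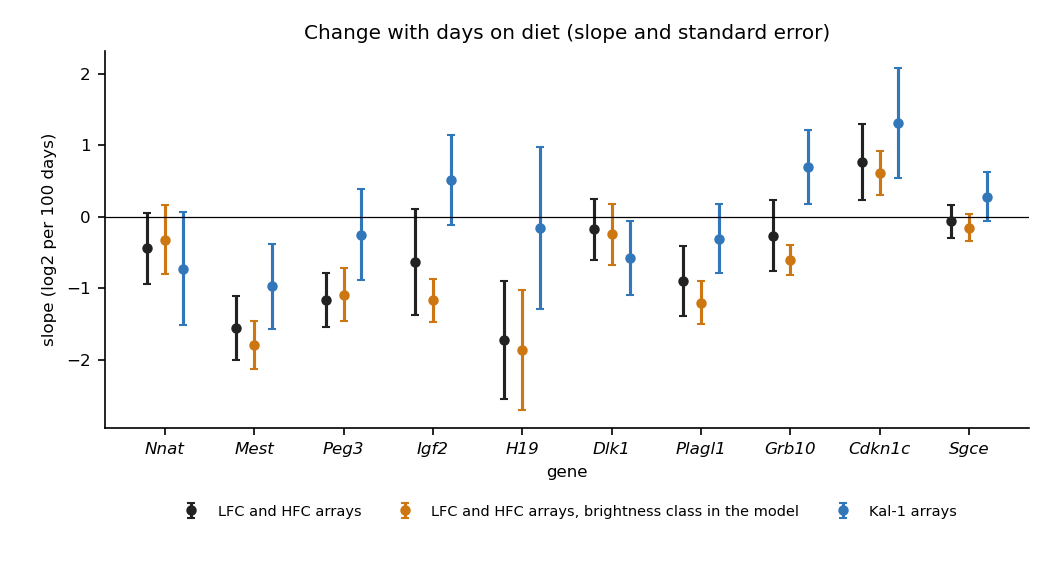
Slope of each gene with days of feeding, in log2 per 100 days (y axis), with its standard error. Black is the fit on the 20 LFC and HFC arrays, orange the same fit with brightness in the model and blue the fit on the 18 Kal-1 arrays. Mest lies below 0 in each (-1.56, -1.80 and -0.97), and Cdkn1c is the only gene above 0 in all of them.

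Several members rose and fell together from array to array. Once the mean of each brightness class was removed, r over 38 arrays was 0.75 between Mest and Igf2, 0.71 between Igf2 and Grb10, 0.68 between Igf2 and Plagl1, 0.64 between Mest and Grb10 and 0.58 between Mest and Plagl1. The median of the 45 pairs was 0.14. Igf2 and Cdkn1c, at 0.63 over 37 arrays, were at -0.22 with brightness removed. These arrays share scan days, time points and brightness, and the values are a description. They include the HF75 array of Week 3, where Mest, Igf2 and Grb10 were at 2.31, 2.85 and 1.91. The means of these genes over bright arrays were -0.83, -0.16 and 0.31, and r without that array was not computed. Nnat was most like the unnamed gene models LOC630896 (r = 0.73), Gm5246 (0.72), Gm5385 (0.70) and Gm7669 (0.69) and Phgdh (0.69), an enzyme of serine synthesis, among 9899 genes above background on all 38 arrays, where 99% of genes were below 0.36.

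Among 53 other imprinted genes on the array, 45 were tested. The F test among doses called 5 of them, beside 13.4% of all genes. They were Gnas (adjusted p = 0.0342), which encodes the stimulatory G protein subunit of the beta-adrenergic pathway, Ndn (0.0342), Phlda2 (0.0342), Slc22a18 (0.0351) and Snrpn (0.0414). Gnas also fell with days in LFC and HFC, by 1.09 per 100 days (adjusted p = 0.0433), the only one of the 45 called there, beside 1.68% of all genes. With brightness in the model 4 of the 45 were called in this trend, 3 of them rising and 1 falling, beside 1721 of all 21855 genes. Blcap, the gene around Nnat, was at 1.32 in HF20 relative to HFC (SE 0.52, adjusted p = 0.120), and at 0.28 with brightness in the model. Of 14 tested genes of the insulin-like growth factor axis, Igf1r was called among the doses (adjusted p = 0.0476). Igf2r, the receptor that clears Igf2, was at 0.88 in HF75 relative to HFC (SE 0.27, adjusted p = 0.536), with the HF75 array of Week 3 included. Of 8 genes around Dlk1 and Notch, Cebpa (0.0342) and Hey1 (0.0351) were called, of 4 genes tied to fat expansion Lep (0.0342), and of 5 genes of the calcium pumps that Nnat is thought to act on none, with Pln nearest (0.0710). No gene was called among the doses once the HF75 array of Week 3 was left out or brightness was in the model.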

How the data were processed

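Total RNA of brown adipose tissue was labelled with Cy3, and a mouse array of custom design was read in 1 colour. Per the file headers, the deposited scanner output gives spot intensity, extracted with Feature Extraction 10.5.1.1. The submitters' processing notes instead name Agilent Feature Extraction 9.1. The processed signal used here had already been background-subtracted and detrended by that software, with no scaling from array to array. The authors also deposited log2 fold changes of each array over the matching LFC array, and these were not used. The number of sample columns left unmapped was 0.

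Processed signals were taken to log2 and centred by subtracting the array's 75th percentile. A gene was represented by its brightest probe on average, and it was tested where that probe was called above background on 6 or more of the 38 arrays. Models were fitted in R 4.3.3 with limma 3.58.1 and, for group comparisons, the time point as a block. Tests were two-sided, and p-values were adjusted by the Benjamini-Hochberg method across the 21855 genes, with a threshold of 0.05. HFC against LFC used the 20 arrays of these diets, and the dose comparisons the 30 arrays of weeks 3 to 18. Slopes are per 100 days, with the diet or dose group as the only other term, and Week 0 was set to day 14 with 7 days a week, taken from how liver of the same experiment was described and not from the labels. Arrays with a 75th percentile above 600 were called bright. The number of arrays limits the precision.

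Besides the members, the text names Blcap, other imprinted genes past the threshold (at most 5 by p, otherwise up to 3), the 5 genes most like Nnat and at most 3 genes for each partner list. The members, gene lists and tests were chosen with earlier results of these data known. Alternatives were quantile normalization, normexp (offset 50), no filter, a filter on every array, slide or scan day as a random block, brightness in the model, no block, leaving out each time point, averaging Day 14 and Week 0, log2 days and all 38 arrays in 1 fit. A floor under dim signals and the omission of the HF75 array of Week 3 were added after the data were seen. The fits were tested on simulated data.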

Additional observations from a re-analysis of the deposited data

Results flagged for a closer look

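In each group of 6 to 10 arrays, the highest and lowest level of each of the 10 genes was compared with its nearest neighbour by Dixon's criterion. Of 50 groups tested 3 held an array that stood apart, and chance gives about 1 in 20 groups. Nnat was at -4.60 on the HF5 array of Week 3, with the next lowest HF5 array at -2.65, and the probe was not well above background there. Mest was at -3.49 on the HF20 array of Week 12, with the next lowest at -1.42, and that array is a bright one. Cdkn1c was at 3.03 on the HF75 array of Week 3, with the next lowest at 5.20. It is the only bright HF75 array and the one with low Ucp1, Cidea and Zic1.

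Nnat (adjusted p = 0.0348), Grb10 (0.0385), Igf2 (0.0433) and Mest (0.0497) differed among the Kal-1 doses by limma's F test. The spread in this test also drew on LFC and HFC arrays, on which Nnat was chosen. Over the alternatives tried the adjusted p ran from 0.00851 to 0.779 for Nnat, from 0.0107 to 1.0 for Grb10, from 0.0131 to 1.0 for Igf2 and from 0.0209 to 1.0 for Mest.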

How the results depend on the processing

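Nnat was higher in HFC than in LFC in all 21 settings, by 0.91 (normexp) to 2.12, and by 1.75 to 2.12 when 1 time point was left out. Genes called between these diets stayed at 0, apart from 5 with all 38 arrays in 1 fit. The F test among doses called 2922 genes and 4 members. It called 0 genes and 0 members with normexp, with no filter, with brightness in the model, without the HF75 array of Week 3 and with these last changes together. It called 6409 genes with slide as a random block, 2 members with quantile normalization, and 0 to 5383 genes and 0 to 5 members when 1 time point was left out. Without the time point as a replicate block it called 1232 genes and 1 member (Nnat), and Kal-1 against LFC called 0 in place of 7. The labels do not say that arrays of a time point share animals or litters, and no other count or call of members changed without this block. Kal-1 against LFC also called 0 genes with normexp, with the filter for every array and with the floor on dim signals, 3 with slide, 16 with brightness, 4 without the HF75 array of Week 3, 11 with both, and 0 to 6 without 1 time point. HF20 against HFC called 0 to 3568 genes and 0 to 1 members (Mest) without 1 time point, the highest without Week 3. HF75 against HFC called 1 gene with quantile normalization, with the filter for every array or with brightness, and 0 to 1 without 1 time point. The trend of LFC and HFC called 893 genes and 2 members (Mest and Peg3) with quantile normalization, 62 genes with no filter, 86 with the filter for every array, 2 with scan day, 1721 and 3 members with brightness, 60 with Day 14 and Week 0 averaged, 14 on log2 days, 607 with the floor, and 7 to 618 genes and 0 to 1 members without 1 time point. The trend of Kal-1 arrays called 1 gene with quantile normalization. The causes were not tested. The array carried 1 probe named Nnat, so the planned check of other Nnat probes could not be run. Signal over background limits Nnat (29 of 38 arrays), Peg3 (29), H19 (19) and Dlk1 (34), and every p rests on 6 to 10 arrays a group.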

Other observations

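Where the array held further probes for a member, they followed the one used to different degrees over the 38 arrays. The second probe of Igf2 had r = 0.97 with the first, the other probes of Grb10 had 0.80 and 0.82, that of Sgce 0.65 and that of Peg3 0.55. The second probe of Plagl1 had r = 0.00 and was above background on 15 of 38 arrays. HFC minus LFC was of the same sign on both probes of Igf2 (0.08 and 0.05), Peg3 (0.19 and 0.50), Plagl1 (0.36 and 0.92) and on all 3 of Grb10 (0.37, 0.49 and 0.66), and of opposite sign on those of Sgce (-0.20 and 0.06).

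On the HF75 array of Week 3, 4 of 7 white adipocyte genes were higher than on any other array, and 3 were within range. Agt was at 2.78 (at most 1.01 on the other 37 arrays) and Hoxc9 at -0.28 (at most -1.59), while Lep and Retn were within range. Of 9 stromal genes 4 were higher and 5 within range, with Pdgfra at 1.34 against at most 0.45. Cox7a1 was at -0.33 against at least 4.41. The summed nerve markers (1.74) were below those of all other arrays (2.99 to 6.54), with 3 of 10 genes lower and 7 within range. Among the members, Mest ranked 1 of 38 on that array, Igf2 and Plagl1 each ranked 11 and Nnat ranked 8.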
